A study of Mus musculus with 9 samples.

Results

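Immunoglobulin and B-lineage transcripts were followed in RNA-Seq libraries of cKit+ CD11b dim or negative splenocytes from a clonally traced mouse model of acute myeloid leukemia. The set held 9 of the 55401 genes in the tables: the immunoglobulin genes *Ighm*, *Ighd*, *Igkc* and *Igkv12-41*, the receptor subunits *Cd79a* and *Cd79b*, the surface protein gene *Ms4a1*, and the transcription factor genes *Pax5* and *Ebf1*. They were selected on measured values, namely their levels in the same 9 libraries, and all 9 were found by gene name. Their levels and fold changes are therefore given as a description, with no p-value, and calls from the fit over all genes are counted once as a description.

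The cells were H9M cells, lineage-negative bone marrow cells of congenic C57BL/6-Ly5.1 mice that had been transduced with retroviral *Hoxa9* and *Meis1*. In every group each clone carried its own color-coded FGB-D vector. A mix of such clones was injected with helper bone marrow cells into lethally irradiated C57Bl6/J recipients, and CD45.1+ EGFRt-bright cells were sorted by color code from the spleen. The 3 pre-malignant libraries came from mouse #15, 1 each of the clone coded 33BC-D, the clone coded 38BC-D and the clone coded 43BC-D. The 3 de novo expanded libraries were of the same clones, from mice #17, #13 and #14, where the paper calls them de novo expanded. By the paper, clone 34BC-D was dominant in mouse #17 and shared dominance with 43BC-D in mouse #14. The 3 stably expanded libraries were all of 1 clone, 34BC-D, from mice #13, #14 and #17. Mouse #15 was, by the paper, sacrificed early after transplantation, at a pre-malignant state, and mice #13, #14 and #17 at their endpoint. The pre-malignant group is thus 1 mouse at 1 earlier time. A difference between that mouse or time and the others cannot be told apart from a difference between the groups. The stably expanded group is likewise 1 clone that is in neither other group. A difference between clone 34BC-D and the other clones cannot be told apart from a group difference either. The columns of the tables name a group but no clone or mouse, so libraries are numbered 1 to 3 within a group.

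In B cells, *Ighm* and *Ighd* encode the constant regions of the IgM and IgD heavy chains, and *Igkc* encodes that of the kappa light chain. Each B cell brings a variable segment into place upstream of these by recombination, so that descendants of 1 B cell share a segment. Unrelated B cells can use the same segment or different ones, so a shared segment does not show a shared B cell. The finished receptor reaches the membrane and signals with the CD79A and CD79B proteins, and *Pax5* and *Ebf1* encode factors that set up and hold the B-cell program. The heavy chain constant region can also be transcribed from an unrearranged locus, which gives germline transcripts that encode no receptor. The receptor is the hallmark of the B lineage, and B cells are abundant in the spleen. In bulk libraries, fewer cells of a type and less RNA per cell cannot be told apart.

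*Igkv12-41*, a kappa variable segment, was the member with the sharpest contrast between groups, and its sequence is shown because near copies could share its reads. It lies on chromosome 6 (GRCm38, chr6:69858420-69858884, minus strand). Among 139 other variable segments in the GENCODE vM1 transcripts, *Igkv12-44* was the nearest, with 332 of 347 bases identical (95.7%), and *Igkv12-46* followed with 330 (95.1%). Bases 48 to 347 of both transcripts are given 5′ to 3′, with the 13 bases at which they differ in capitals:
Igkv12-41: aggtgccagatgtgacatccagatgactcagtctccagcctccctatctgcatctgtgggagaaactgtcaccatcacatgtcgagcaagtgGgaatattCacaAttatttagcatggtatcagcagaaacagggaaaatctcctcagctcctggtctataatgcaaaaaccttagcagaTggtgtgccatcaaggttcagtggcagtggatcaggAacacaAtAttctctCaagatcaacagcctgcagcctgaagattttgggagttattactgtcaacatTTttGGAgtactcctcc
Igkv12-44: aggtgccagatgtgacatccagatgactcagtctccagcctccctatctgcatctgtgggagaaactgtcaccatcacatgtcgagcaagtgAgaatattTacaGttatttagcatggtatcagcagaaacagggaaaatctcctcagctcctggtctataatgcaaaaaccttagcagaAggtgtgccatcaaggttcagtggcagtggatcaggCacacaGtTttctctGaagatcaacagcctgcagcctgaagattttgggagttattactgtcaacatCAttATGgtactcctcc
The differences lie singly or in short runs. Of the 310 windows of 38 bases (the read length) in *Igkv12-41*, 137 (44.2%) occur unchanged in another transcript, namely of *Igkv12-38*, *Igkv12-44* or *Igkv12-46*. A read in those windows cannot be assigned to 1 segment by its sequence alone.

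Depth overlapped between the groups. Reads counted on genes ranged from 10379739 to 15551196 per library. The median log2 fold change over all genes tested was 0.01 between de novo expanded and pre-malignant libraries and lay as near 0 in the other comparisons. De novo expanded library 3 stood apart from the other two of its group: it held 241862 reads on *Mpo*, the myeloperoxidase gene of promyelocytes, against 19616 and 41340. For *Ighm*, *Ighd*, *Igkc*, the sum of other variable segments and the calls, values are given with and without it. The sorted population carried myeloid progenitor transcripts throughout, and the summed level of 12 such genes was between 3636 and 21330 CPM (reads scaled to 1000000 reads on genes). *Cd22*, a B-cell coreceptor gene, had 21 to 53 reads in pre-malignant, 3 to 30 in de novo expanded and 8 to 16 in stably expanded libraries.

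*Ighm* was the most abundant member. It lies on chromosome 12 (GRCm38, chr12:113418558-113422730, minus strand). The pre-malignant libraries held 2760, 2845 and 3558 reads on it, the de novo expanded ones 2298, 2333 and 948, and the stably expanded ones 1042, 1155 and 862. All pre-malignant libraries were higher than all stably expanded ones, and de novo expanded library 3 sat at the stably expanded level while the other two lay between the groups. Mean levels were 215 ± 23.3 CPM, 135 ± 66.3 CPM and 76.7 ± 7.81 CPM (SD, n = 3 each). The log2 fold change, here and below on the scale of log2(normalized count + 1), was -1.48 (SE 0.11) between stably expanded and pre-malignant libraries, a 2.79-fold lower level. Between de novo expanded and pre-malignant libraries it was -0.80 (SE 0.37), and -0.33 without de novo expanded library 3.

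*Ighd* lies directly downstream of *Ighm* (chr12:113406604-113416324, minus strand) and is made from the same primary transcript by splicing in mature B cells. It had 98, 49 and 62 reads in pre-malignant, 45, 33 and 15 in de novo expanded, and 18, 28 and 13 in stably expanded libraries. Pre-malignant and stably expanded libraries did not overlap, and the log2 fold change was -1.68 (SE 0.41). Between de novo expanded and pre-malignant libraries it was -1.20 (SE 0.53), and -0.72 without de novo expanded library 3. There were 28.2 to 70.7 reads on *Ighm* for each read on *Ighd*, with no order among the groups.

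*Igkc* (chr6:70726435-70726966, plus strand) is the single kappa constant region. It had 519, 169 and 263 reads in pre-malignant, 257, 116 and 19 in de novo expanded, and 15, 13 and 53 in stably expanded libraries. The lowest pre-malignant library was above the highest stably expanded one, while the de novo expanded libraries ranged from one group to the other. The log2 fold change was -3.53 (SE 0.63) between stably expanded and pre-malignant libraries. Between de novo expanded and pre-malignant libraries it was -1.74 (SE 0.95), and -0.66 without de novo expanded library 3. For every 100 reads on *Ighm* there were 18.8, 5.94 and 7.39 reads on *Igkc* in pre-malignant libraries, 11.2, 4.97 and 2.00 in de novo expanded libraries, and 1.44, 1.13 and 6.15 in stably expanded libraries.

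*Igkv12-41*, whose sequence is given above, had 113, 35 and 95 pre-malignant reads and 0 in each of the 6 other libraries. A count of 0 allows up to 3 reads per library, which covers counting error only. Against this floor, the mean level of *Igkv12-41* was at least 27.0-fold lower in de novo expanded and at least 25.2-fold lower in stably expanded than in pre-malignant libraries. These bounds take the pre-malignant mean and leave out the spread of its 3 libraries. All 3 pre-malignant libraries came from 1 mouse, so its presence in 3 clones is not a count of 3 animals. *Igkv12-44*, its nearest copy, had 9 reads in pre-malignant library 3 and 24 in stably expanded library 3 and 0 elsewhere.

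*Cd79a* and *Cd79b*, which encode the partners of the receptor's signalling unit, differed in the direction of their means. *Cd79a* (chr7:24897381-24902197, plus strand) had 19, 15 and 26 reads in pre-malignant, 9, 16 and 3 in de novo expanded, and 9, 5 and 2 in stably expanded libraries. Its log2 fold change was -1.79 (SE 0.58) between stably expanded and pre-malignant libraries, whose values did not overlap. *Cd79b* (chr11:106311341-106314762, minus strand) was the only member with a higher mean in stably expanded than in pre-malignant libraries. It had 91, 147 and 69 reads in pre-malignant, 75, 74 and 141 in de novo expanded, and 224, 142 and 185 in stably expanded libraries. Its log2 fold change was 0.99 (SE 0.32) against pre-malignant libraries, whose highest CPM (10.1) lay just above the lowest stably expanded CPM (9.73), and 1.07 (SE 0.34) against de novo expanded libraries, with no overlap. For each read on *Cd79a* there were 2.65 to 9.80 reads on *Cd79b* in pre-malignant libraries and 24.9 to 92.5 in stably expanded libraries.

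The gene *Ms4a1* (chr19:11249675-11266241, minus strand), which encodes the B-cell surface protein CD20, had 27, 34 and 42 reads in pre-malignant, 12, 4 and 8 in de novo expanded, and 8, 3 and 7 in stably expanded libraries. Each pre-malignant library was above all 6 others. The log2 fold change was -2.03 (SE 0.53) in de novo expanded and -2.29 (SE 0.53) in stably expanded libraries.

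**Figure D1:**
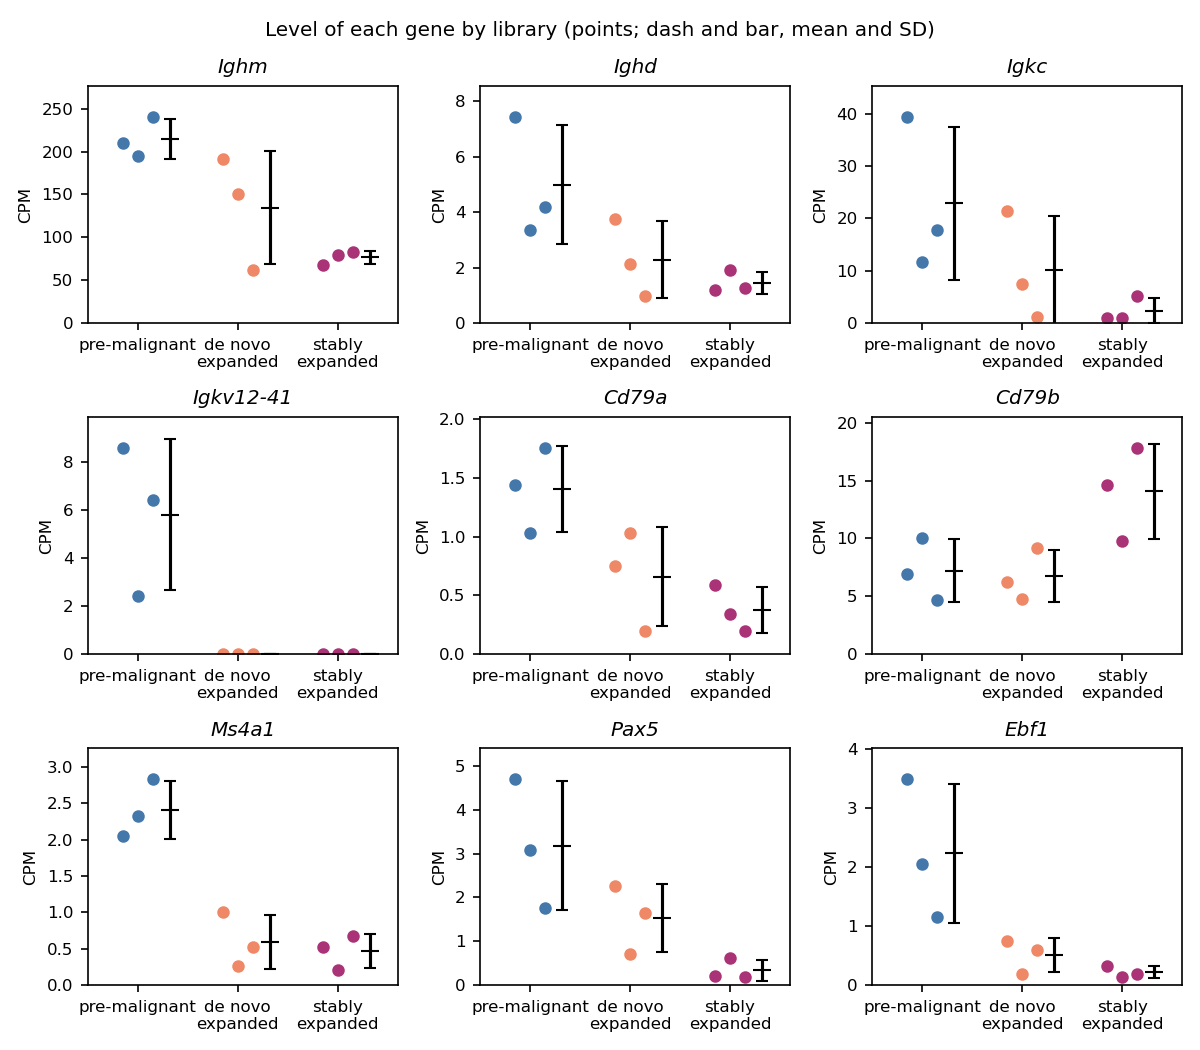
Level of each of the 9 genes in CPM (vertical axes from 0, scaled per gene) in the 3 libraries of each group, as points, with the mean and SD beside them (bars that would pass below 0 end at 0). Pre-malignant *Ighm* points lie at 195 to 240 CPM and stably expanded ones at 68.0 to 83.1 CPM, *Igkv12-41* is at 0 outside the pre-malignant group, and *Cd79b* is highest in the stably expanded group.

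*Pax5* and *Ebf1* were low in all libraries. *Pax5* (chr4:44524757-44710487, minus strand), which represses the genes of other lineages in committed B cells, had 62, 45 and 26 reads in pre-malignant, 27, 11 and 25 in de novo expanded, and 3, 9 and 2 in stably expanded libraries. Stably expanded libraries lay below all others, and the log2 fold change was -3.04 (SE 0.59) against pre-malignant and -1.99 (SE 0.65) against de novo expanded libraries. *Ebf1* (chr11:44617317-45008091, plus strand), which opens B-lineage genes upstream of *Pax5*, had 46, 30 and 17 reads in pre-malignant, 9, 3 and 9 in de novo expanded, and 5, 2 and 2 in stably expanded libraries. Pre-malignant libraries were above all others, with log2 fold changes of -1.99 (SE 0.63) in de novo expanded and -2.89 (SE 0.61) in stably expanded libraries.

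Promoter sequence from RefSeq (GRCm38.p6) was at hand for 3 of the 9 members, *Cd79a*, *Pax5* and *Ebf1*, and those of *Cd79a* and *Pax5* are shown because they held a match to a searched B-lineage motif, and both genes had lower means in stably expanded than in pre-malignant libraries. Motifs searched on both strands were the octamer ATTTGCAT bound by OCT factors, TCNNGGGA as a loose form of the EBF motif, and the E box CAGGTG bound by E proteins, none of which overlapped in these windows. The 250 bases upstream of each start are given 5′ to 3′ on the gene's strand, for *Cd79a* from chr7:24897247-24897496 (plus strand) and for *Pax5* from chr4:44710695-44710944 (minus strand), with matches in capitals:
Cd79a: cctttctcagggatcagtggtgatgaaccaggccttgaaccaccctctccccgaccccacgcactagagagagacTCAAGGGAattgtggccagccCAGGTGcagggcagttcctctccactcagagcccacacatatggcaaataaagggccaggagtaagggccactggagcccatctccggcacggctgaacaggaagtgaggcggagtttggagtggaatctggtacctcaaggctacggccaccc
Pax5: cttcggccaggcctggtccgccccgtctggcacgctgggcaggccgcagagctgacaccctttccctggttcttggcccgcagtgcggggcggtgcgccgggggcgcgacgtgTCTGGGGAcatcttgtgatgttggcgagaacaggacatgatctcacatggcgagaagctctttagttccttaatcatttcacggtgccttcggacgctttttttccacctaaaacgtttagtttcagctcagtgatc
The *Cd79a* window held the EBF form 168 to 175 bases and the E box 149 to 154 bases before the start, and the *Pax5* window held the EBF form 130 to 137 bases before it. These RefSeq starts differ from the ends of the gene positions given above, and the *Cd79a* window lies partly within that gene's span. Neither *Ebf1* window held any of the 3 motifs. Of 32536 promoter windows of this length, 15.2% held the EBF form, 17.3% the E box and 1.62% the octamer, and a match describes only the letters present.

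Levels of different genes were compared per kilobase of gene model. In pre-malignant libraries *Ighm* stood at 114 ± 12.3 CPM per kilobase (SD, n = 3), followed by *Igkc* at 43.1 ± 27.4, *Igkv12-41* at 16.7 ± 9.04, *Cd79b* at 5.04 ± 1.90 and *Ighd* at 2.63 ± 1.14. *Cd79a* at 0.967 ± 0.251, *Ms4a1* at 0.389 ± 0.0646, *Pax5* at 0.359 ± 0.167 and *Ebf1* at 0.229 ± 0.121 CPM per kilobase followed. The intervals of mean ± SD overlapped between *Igkc* and *Igkv12-41*, between *Cd79b* and *Ighd*, and between each pair of *Ms4a1*, *Pax5* and *Ebf1*. In stably expanded libraries *Ighm* was still first, at 40.7 ± 4.14 CPM per kilobase, and *Cd79b* came next at 9.82 ± 2.85, followed by *Igkc* at 4.37 ± 4.53, with overlapping intervals.

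**Figure D2:**
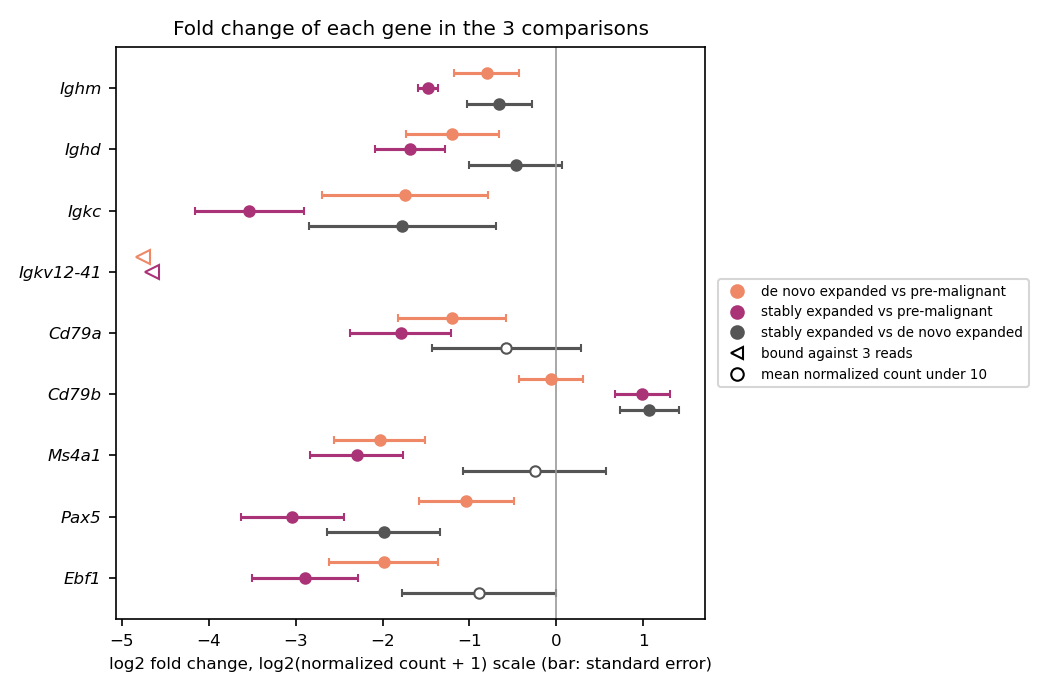
Log2 fold change of each gene (horizontal axis, on the scale of log2(normalized count + 1)) in the 3 comparisons, as points with the standard error as bars. Open circles mark members with a mean normalized count under 10, and triangles mark *Igkv12-41* at its bound of at least 27.0-fold and 25.2-fold lower. *Cd79b* is the only gene with points right of 0.

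Calls were made at a limma adjusted p under 0.05 and at least a 2-fold change, over all genes whose mean normalized count reached 10. A gene with a mean under 10 in 1 group passed this filter only through the other group, so only 1 direction could be called for it. *Igkv12-41*, *Cd79a*, *Ms4a1*, *Pax5* and *Ebf1* were such genes, with stably expanded mean normalized counts of 0, 5.08, 6.39, 4.51 and 2.98. Between stably expanded and pre-malignant libraries 7 of the 9 members were called, all lower (all but *Cd79a* and *Cd79b*), beside 2.75% of the 13968 genes tested, and 8 of 9 did not overlap between the groups, beside 30.7% of all tested genes. Since the members were selected on these values, nothing is read from these counts. Between de novo expanded and pre-malignant libraries 0 of 9 members and 0 of 14195 genes (0%) were called by limma. An unadjusted p under 0.05 was reached by 1597 genes, and DESeq2 called 42, *Igkv12-41* among them, which limma also called with no filter on low values. 4 members, *Ighm*, *Igkv12-41*, *Ms4a1* and *Ebf1*, did not overlap there, beside 19.1% of all genes. Between stably and de novo expanded libraries 5 of 9 members passed the filter on low values and 0 were called, beside 1 of 13758 genes (0.00727%). *Cd79b* and *Pax5* did not overlap, beside 9.61% of all genes. Without de novo expanded library 3, limma called *Igkv12-41* between de novo expanded and pre-malignant libraries, and *Ighm* and *Cd79b* between stably and de novo expanded libraries. The pre-malignant libraries are shared by both comparisons that use them. Calls between stably expanded and pre-malignant libraries depended on single libraries. Leaving out pre-malignant library 1 or 2 left 3 called members (*Ighm*, *Igkc* and *Igkv12-41*), and leaving out pre-malignant library 3 or stably expanded library 1 left 5, with *Pax5* and *Ebf1* added. Without stably expanded library 2, *Ms4a1* was lost and *Cd79b* was called higher, and without stably expanded library 3, *Ighd* was lost.

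Variable segments can differ between B-cell receptors, and apart from *Igkv12-41* they were not used to choose the members. Reads from rearranged and unrearranged segments were not told apart here. The tables held 348 heavy, kappa and lambda variable segments, and 176 of them had at least 1 read somewhere. Reads on all of them together numbered 395, 237 and 376 in the pre-malignant, 267, 64 and 49 in the de novo expanded, and 55, 42 and 92 in the stably expanded libraries. Segments with at least 1 read numbered 52, 47 and 62 in pre-malignant, 27, 16 and 18 in de novo expanded, and 17, 24 and 24 in stably expanded libraries, so every pre-malignant library held more than every other.

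Segments other than *Igkv12-41* summed to 18.1 ± 3.87 CPM in pre-malignant, 9.87 ± 10.8 CPM in de novo expanded and 5.11 ± 3.27 CPM in stably expanded libraries (SD, n = 3 each). In an exact two-sided permutation test the stably expanded libraries differed from the pre-malignant ones by -13.0 CPM with p = 0.1, which is the smallest p that 3 against 3 libraries allow, and an adjusted p = 0.3 over 3 comparisons. All 3 stably expanded libraries were lower than all 3 pre-malignant ones. For de novo expanded against pre-malignant libraries the exact permutation test gave a difference of -8.21 CPM and p = 0.4, adjusted p = 0.6, and for stably against de novo expanded libraries a difference of -4.76 CPM and p = 0.6, adjusted p = 0.6. None passed 0.05, and this design could not have done so. De novo expanded library 1 was above the pre-malignant libraries, at 22.3 CPM, and without it the difference from pre-malignant libraries was -14.4 CPM, while the stably expanded libraries exceeded the de novo expanded ones by 1.45 CPM. Without de novo expanded library 2 the difference from pre-malignant libraries was -5.33 CPM, and without library 3 it was -4.87 CPM.

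Few segments reached 10 reads in more than 1 library. Of the 18 segments with at least 10 reads in any library, 13 reached that number in 1 library, 3 in 2 and 2 in 3 or more. The 5 with the most reads over the 9 libraries were *Igkv5-39* (252), *Igkv12-41* (243), *Ighv1-41* (81), *Ighv3-6* (75) and *Igkv1-117* (59). *Igkv5-39* had 72 reads in pre-malignant library 3, 166 in de novo expanded library 1, 14 in all stably expanded libraries together and 0 elsewhere. *Ighv3-6* was seen in pre-malignant libraries alone, with 33, 2 and 40 reads. *Ighv1-41* was the only one of the 18 with reads in all 9 libraries, 4 to 10 in pre-malignant, 1 to 15 in de novo expanded and 9 to 21 in stably expanded libraries.

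**Figure D3:**
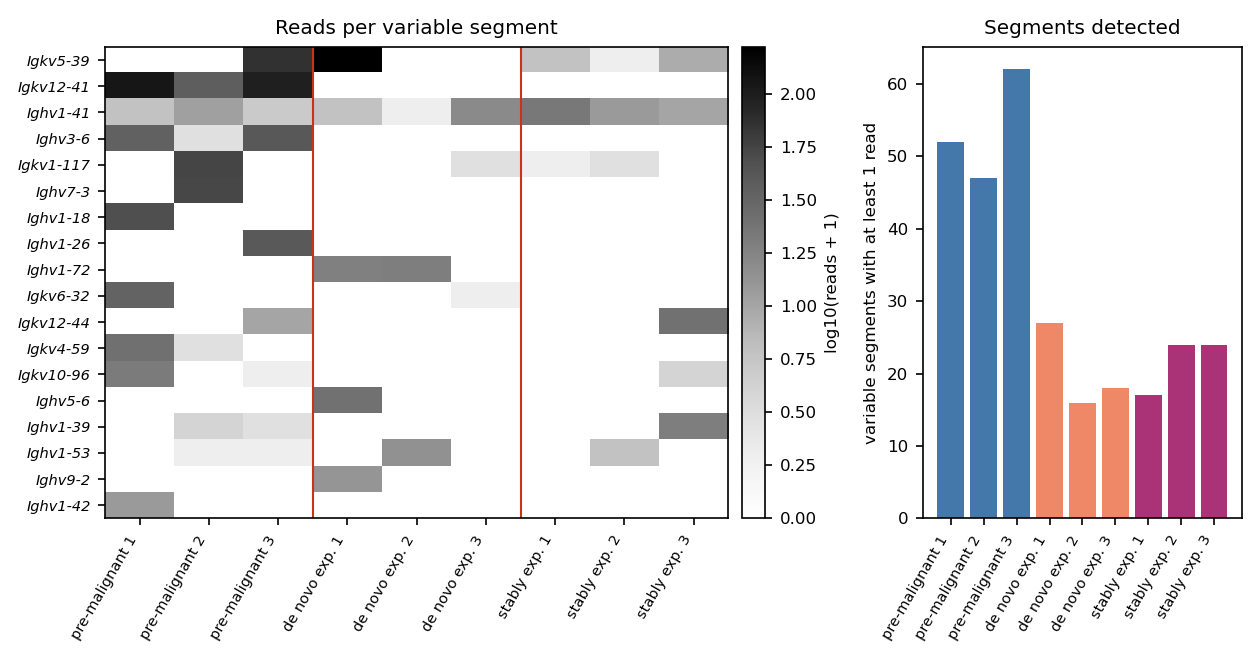
Left, reads per library (columns) for the 18 variable segments with at least 10 reads in any library, shaded by log10(reads + 1), with red lines between the groups. Right, the number of variable segments with at least 1 read in each library. *Igkv12-41* and *Ighv3-6* are shaded in pre-malignant columns only, *Ighv1-41* in all 9, and pre-malignant libraries hold 47 to 62 segments against 16 to 27 in the others.

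The most used segment took a moderate share of all variable reads in most libraries. *Igkv12-41* took 28.6% (95% Wilson interval 24.4 to 33.2%) in pre-malignant library 1 and 25.3% (21.1 to 29.9%) in library 3, and *Igkv1-117* took 22.8% (17.9 to 28.5%) in library 2. The highest share was that of *Igkv5-39* in de novo expanded library 1, 62.2% (56.2 to 67.8%), where *Ighv5-6* followed with 24 reads. Among the stably expanded libraries *Ighv1-41* led in library 1 with 38.2% (26.5 to 51.4%) and in library 2 with 26.2% (15.3 to 41.1%), and *Igkv12-44* led in library 3 with 26.1% (18.2 to 35.9%). These intervals cover counting error only, since the reads counted are not independent molecules. For every 100 reads on *Ighm* and *Igkc* there were 7.86 to 12.0 reads on variable segments in pre-malignant libraries, 2.61 to 10.4 in de novo expanded and 3.60 to 10.1 in stably expanded libraries.

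Constant genes of the IgG heavy chains had another pattern. Transcripts of switched and of unrearranged loci were not told apart here. *Ighg2b*, the IgG2b constant region, had 242, 42 and 5 reads in the de novo expanded libraries, 2, 1 and 8 in the pre-malignant and 3, 0 and 0 in the stably expanded ones. *Ighg2c*, the IgG2c constant region, had 286 reads in de novo expanded library 2 and 0 to 14 in every other library. Each therefore rested on 1 or 2 de novo expanded libraries, and neither was called. Lambda constant genes held 18 to 31 reads in pre-malignant, 5 to 12 in de novo expanded and 4 to 10 in stably expanded libraries, and heavy chain joining segments held 19 to 24, 5 to 46 and 2 to 11.

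Genes of the B-cell program beyond the 9 members were described through 5 lists with 56 genes. Between stably expanded and pre-malignant libraries 37 of them were tested, 1 was called higher and 4 lower (13.5% called, beside 2.75% of all genes), and their median log2 fold change was -0.10 (0.00 over all genes). The lists were written with earlier results of these data known, so nothing is read from this share. 0 of 39 were called between de novo expanded and pre-malignant libraries, with a median of -0.13, and 0 of 31 between stably and de novo expanded libraries, with a median of -0.01. DESeq2 called 0 and 1, respectively, the 1 being *Ikzf3*, the Aiolos gene. By an unadjusted p under 0.05 limma had 1597 and 664 genes in these comparisons among all genes.

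The list of 14 B-lineage transcription factors held 3 of the 5 calls between stably expanded and pre-malignant libraries. *Irf8*, a factor of both B cells and monocyte or dendritic progenitors, had 4058, 6437 and 8237 reads in pre-malignant and 1868, 3778 and 1491 in stably expanded libraries, and its log2 fold change was -1.35 (SE 0.25, limma adjusted p = 0.0126). *Bach2*, which holds back plasma cell differentiation, had 49, 34 and 39 reads against 7, 12 and 9, a log2 fold change of -1.93 (SE 0.46, limma adjusted p = 0.0300). *Bcl11a*, needed for early B cells, had 43, 39 and 21 reads against 7, 10 and 6, a log2 fold change of -1.90 (SE 0.49, limma adjusted p = 0.0419). *Bach2* and *Bcl11a* passed the filter on low values only through their pre-malignant reads, so only a lower level could be called for them. *Irf8* was among the 3 most abundant genes of this list, and the other two, *Ikzf1* (Ikaros) and *Tcf3* (E2A), were not called, with log2 fold changes of -0.03 (SE 0.12) and 0.06 (SE 0.10). Of the 13 genes tested, 10 had lower and 3 higher means, and the median log2 fold change was -0.89.

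Coreceptor and surface genes gave 1 call in 10 tested, in the opposite direction. *Cd24a*, expressed on immature B cells and on many myeloid cells, rose from 1881, 2910 and 2323 reads in pre-malignant to 5514, 5230 and 3583 reads in stably expanded libraries, and its log2 fold change was 1.11 (SE 0.11, limma adjusted p = 0.00247). *Cd37* and *Fcgr2b*, a tetraspanin and the inhibitory Fc receptor, followed in abundance and were not called, at 0.23 (SE 0.12) and 0.24 (SE 0.12). *Cd22* at -1.41 (SE 0.47) missed the threshold (limma adjusted p = 0.0913). The median over the 10 tested genes was -0.56.

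Many receptor signalling genes are shared with myeloid cells. *Vav1*, *Plcg2* and *Syk*, the 3 most abundant, had log2 fold changes of 0.04 (SE 0.09), 0.05 (SE 0.08) and 0.26 (SE 0.10), and 0 of 9 tested genes of this list were called. *Blnk*, a B-cell adaptor gene, was low, with 25, 18 and 9 reads in pre-malignant against 4, 8 and 2 in stably expanded libraries, a log2 fold change of -1.66 (SE 0.65, limma adjusted p = 0.138). Of 9 genes of the pre-B receptor and of recombination only *Rag2* was tested between stably expanded and pre-malignant libraries, with 14, 15 and 3 reads against 28, 11 and 6, and was not called. 5 of these 9 genes had under 10 reads in every library, and *Il7r* and *Ly6d* followed *Rag2* with at most 18 and 17 reads. Of 9 plasma cell genes 4 were tested and 1 called, *Jchain*, which encodes the chain that joins IgM pentamers. It had 87, 58 and 63 reads in pre-malignant, 43, 8 and 4 in de novo expanded and 0, 3 and 17 in stably expanded libraries, and its log2 fold change was -3.90 (SE 0.92, limma adjusted p = 0.0305) between stably expanded and pre-malignant libraries. *Jchain* too passed the filter on low values only through its pre-malignant reads. *Xbp1*, *Creld2* and *Fkbp11*, secretory genes of many cell types, were not called, at -0.11 (SE 0.12), 0.18 (SE 0.12) and 0.17 (SE 0.33). Of these 5 calls *Cd24a* held whichever library was left out, and *Irf8* was lost without pre-malignant library 2. *Bach2* held only without stably expanded library 2 or 3, *Jchain* only without stably expanded library 3, and *Bcl11a* was lost whichever library was left out. The *Jchain* call was also lost with edgeR, DESeq2 and a pseudocount of 0.1, the *Bcl11a* call with DESeq2, and all but *Cd24a* and *Irf8* were under a minimum mean of 50.

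**Figure D4:**
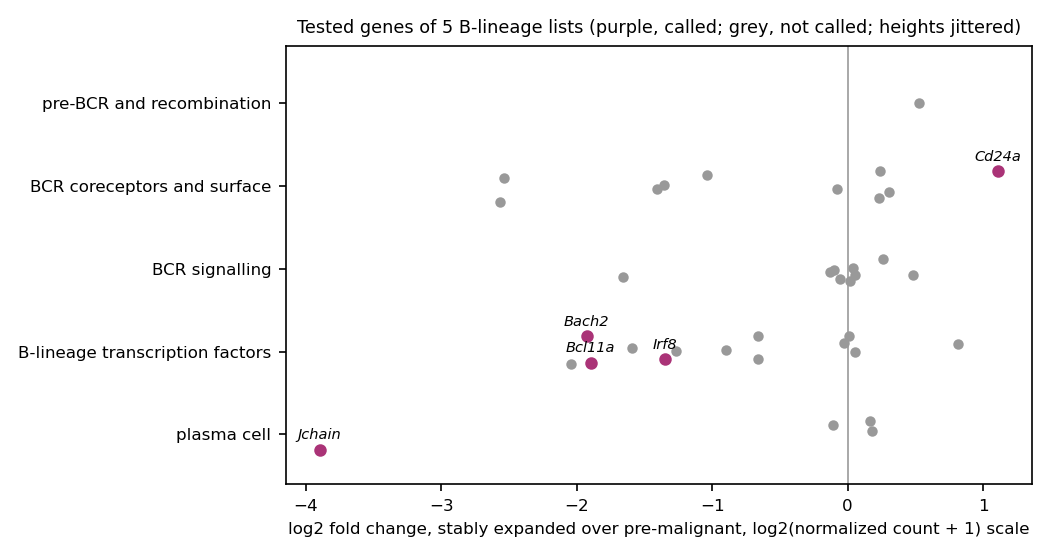
Log2 fold change between stably expanded and pre-malignant libraries (horizontal axis, on the scale of log2(normalized count + 1)) of the 37 tested genes in 5 B-lineage lists (vertical axis, with heights jittered). Called genes are purple and named, 4 left of 0 (*Bach2*, *Bcl11a*, *Irf8* and *Jchain*) and *Cd24a* right of it, and 8 of the 9 signalling genes lie within 0.5 of 0, the other being *Blnk* at -1.66.

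Markers of other cells in the spleen were read in the same way. Summed levels of 7 erythroid genes were 24.0 to 55.5 CPM in pre-malignant, 3.14 to 18.8 CPM in de novo expanded and 3.95 to 31.4 CPM in stably expanded libraries, and 6 of 6 tested had lower means in stably expanded than in pre-malignant libraries, with 0 called. *Slc4a1*, *Hbb-bs* and *Alas2*, genes of the red cell membrane, globin and heme synthesis, had 88 to 275, 100 to 168 and 73 to 142 reads in pre-malignant libraries and 26 to 123, 4 to 148 and 4 to 63 in stably expanded ones. The 6 NK cell genes summed to 4.17 to 5.88 CPM in pre-malignant against 0.784 to 1.67 and 1.64 to 2.12 CPM in the other groups, and *Klrk1*, *Eomes* and *Ncr1* led them, with *Ncr1* at 2 to 9 reads in pre-malignant and at most 2 in other libraries. In the pre-malignant libraries NK cell sums lay above those of all 6 others. Erythroid sums there lay above those of all de novo expanded libraries but overlapped those of stably expanded ones. The part of these cells in the result was not tested.

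T cell, platelet and macrophage sums overlapped between pre-malignant and stably expanded libraries. The 12 T cell genes summed to 3.72 to 5.89, 3.41 to 5.62 and 2.02 to 4.18 CPM, led by *Lck*, *Cd5* and *Bcl11b* with at most 24, 17 and 13 reads, and 6 of the 12 had under 10 reads in every library. All but *Lck* and *Bcl11b* had lower means in stably expanded than in pre-malignant libraries. *Cd3e* was at 0.0914 against 0.395 CPM and *Cd3d* at 0.0914 against 0.353 CPM, with at most 8 and 6 reads. The part of T cells in the result was not tested. The 6 platelet genes summed to 2.50 to 3.11, 1.17 to 2.16 and 2.09 to 2.67 CPM, led by *Itga2b* with 14 to 39 reads, with *Gp9* and *Gp6* at 8 reads or fewer and 2 of the 6 at 0 in all libraries. The 8 macrophage genes summed to 88.4 to 186, 54.6 to 243 and 171 to 230 CPM, and this sum lay mostly in *Adgre1* and *Vcam1*, which myeloid cells can also express. The other 6 genes of this list, each with at most 30 reads in any library, had lower means in stably expanded than in pre-malignant libraries, such as *Mrc1* at 0.536 against 1.66 CPM and *C1qb* at 0.219 against 0.623 CPM, and their part in the result was not tested. The 6 plasmacytoid dendritic cell genes summed to 54.3 to 73.1, 60.5 to 97.2 and 81.4 to 95.3 CPM, nearly all in *Lair1* and *Bst2*, with *Cox6a2* at 0 to 14 reads. Of the 12 myeloid progenitor genes 2 were called higher in stably expanded than in pre-malignant libraries, *Ms4a3* at 1.26 (SE 0.16, limma adjusted p = 0.00346) and *Cebpe* at 1.67 (SE 0.21, limma adjusted p = 0.00346), both of the granulocytic path, while *Mpo*, *Ctsg* and *Elane* were not called, at 0.31 (SE 0.12), 0.76 (SE 0.17) and 0.78 (SE 0.13).

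The neighbourhood of *Ighm* on chromosome 12 was examined up to 300 kb from its start. Apart from *Ighd* and the IgG constant genes, 3 genes with a mean of at least 1 CPM start there. *Gm9517*, 208 kb upstream of *Ighm*, and *Tedc1*, 266 kb downstream, were not called between stably expanded and pre-malignant libraries, at 0.36 (SE 0.48) and -0.10 (SE 0.16). *Crip1*, 276 kb downstream, which encodes a small LIM domain protein, had 82, 107 and 191 reads in pre-malignant, 406, 559 and 205 in de novo expanded and 391, 352 and 188 in stably expanded libraries. It was called higher in stably expanded libraries, and its log2 fold change was 1.41 (SE 0.27, limma adjusted p = 0.0127), opposite in direction to *Ighm*.

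The genes most like *Ighm* and *Igkv12-41* across the 9 libraries were found by Pearson correlation of log2(CPM + 1) among 13081 other genes with a mean of at least 1 CPM. For *Ighm* they were *Nlrc5* (r = 0.980), *Gpatch8* (0.974), *Mtmr14* (0.969), *L3mbtl3* (0.968) and *Preb* (0.968). *Nlrc5*, the activator of MHC class I genes, had 1720, 1771 and 1863 reads in pre-malignant, 1326, 1507 and 524 in de novo expanded and 791, 659 and 534 in stably expanded libraries, with de novo expanded library 3 again at the stably expanded level. For *Igkv12-41* they were *Zfp619* (0.979), *Taf13* (0.976), *Irf1* (0.975), *Trafd1* (0.975) and *Rnu2-10* (0.970). *Irf1*, an interferon-regulated factor, had 1180 to 1269 reads in pre-malignant and 575 to 862 in all other libraries. These correlations are over 9 libraries that share groups and depth and are given as a description. No other member was among these 10 genes.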

How the data were processed

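RNA-Seq libraries were made with a SMARTer stranded pico-input kit for total RNA and read with 38 bases per read. Per the labels and the paper's methods, reads were processed with nf-core/rnaseq (Trim Galore 0.6.4, STAR 2.6.1d, featureCounts 1.6.4) on GRCm38.p6 with GENCODE annotation. Whether counting used strand is not given in the sources used here. The deposited signal is a normalized read count: in each of 3 tables of 6 libraries, the authors scaled the reads on a gene by a DESeq2 size factor per library. Each deposited table also gives gene lengths. The authors' columns with fold changes, standard errors, Wald statistics, p-values and adjusted p-values were not used. There were 0 columns of other samples.

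Dividing each library by its smallest step returned whole reads, to within 0.05 reads, for 100% of values under 5000 reads, and the same reads came from both tables holding a library. The main test was two-sided limma 3.58.1 (R 4.3.3, empirical Bayes trend) applied to log2(normalized count + 1) wherever the mean normalized count reached 10, Benjamini-Hochberg adjusted and called under 0.05 and at 2-fold or more. It was also run on simulated data with known changes, drawn with the means and spread of these libraries, and the outcome is not reported here. Alternatives were pseudocounts of 0.1 and 5, no filter or a mean of 50, edgeR 4.0.16 (quasi-likelihood, TMM) and DESeq2 1.42.0 on the recovered reads, and each library left out. edgeR called 377 genes and DESeq2 393 between stably expanded and pre-malignant libraries, against 384 by limma. Other values and the plots come from Python 3.11.15.

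Members and lists were chosen with earlier results of these data known. Named were all members, each list's called genes and its 3 most abundant, the 5 immunoglobulin variable segments with most reads, expressed genes within 300 kb of *Ighm*, and the 5 genes most correlated with *Ighm* and with *Igkv12-41*. *Cd22* and other single markers or segments were named after their values were seen. Some items of the design and the lists are not reported here. The pre-malignant libraries share 1 mouse and the stably expanded ones 1 clone, and no label says that same-group libraries share more. The p-values measure the spread between these libraries only. They do not measure the spread between mice in the pre-malignant group or between clones in the stably expanded group.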

Additional observations from a re-analysis of the deposited data

How the results depend on the processing

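No paired analysis was possible because the columns carry no clone or mouse number. Of 234 recomputed member fold changes (26 values), 230 kept their direction. The 4 that did not were *Cd79b* between de novo expanded and pre-malignant libraries and *Ms4a1* between stably and de novo expanded libraries, both near 0 and not called. The fitted fold change of *Igkv12-41* moved with the pseudocount, so only its bound is given above.

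Between de novo expanded and pre-malignant libraries the genes called went from 0 to 5 with no filter and 42 with DESeq2, and ranged from 0 to 214 when a replicate was left out, the last without de novo expanded library 3. No list gene was called there. Between stably expanded and pre-malignant libraries the 384 calls ranged from 206 to 452 and the 5 list calls from 1 to 5 when a replicate was left out, and a minimum of 50 left 2 list calls, since fewer genes were tested, and 2 called members. Between stably and de novo expanded libraries the 1 call became 2 with no filter and 29 with DESeq2, and ranged from 0 to 508 without a replicate, and list calls were 1 with DESeq2 (*Ikzf3*) and 0 to 3 without a replicate, the highest values again without de novo expanded library 3. The cause was not tested. The difference in other variable segments between stably and de novo expanded libraries ranged from -8.09 to 1.45 CPM, the last without de novo expanded library 1, which reversed it. Members under about 10 reads cannot be ordered between the leukemic groups at this depth.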
